A study of Mus musculus with 4 samples.

Results

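A set of 10 genes of the Notch pathway was followed across 4 RNA sequencing libraries of cultured mouse cells, 2 treated with the solvent DMSO and 2 with daidzein. The set holds the receptors Notch1 and Notch2, the ligands Jag1 and Jag2, the target genes Hes1, Hey1 and Nrarp, the DNA-binding factor Rbpj, its co-activator Maml1 and the glycosyltransferase Lfng. The genes were found by symbol among the 55401 genes of the deposited table, and all 10 were in it, each on 1 row. They were put together with earlier daidzein and DMSO results of the same libraries known. Their differences between the groups are therefore given as a description, and nothing is supported with them. The labels describe the cells as female germline stem cells from the ovary of C57BL/6 mice, in the condition "normal". For all 4 samples the same medium is given. It held serum, leukemia inhibitory factor and glial cell line-derived neurotrophic, basic fibroblast and epidermal growth factors. Daidzein is an isoflavone from soy and a ligand of oestrogen receptors. No dose or duration of the treatment is stated in the labels. Nothing in the labels ties the replicates to separate cultures. The p-values and intervals below therefore rest on a spread between samples that may be technical only.

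Notch signalling passes between touching cells. A ligand of the Jagged or Delta-like type on one cell pulls on a Notch receptor on its neighbour, which lets an ADAM protease and then gamma-secretase cut the receptor and free its intracellular part. That part enters the nucleus, joins the DNA-binding protein Rbpj and recruits Mastermind-like co-activators, and genes such as Hes1, Hey1 and Nrarp are then transcribed. In the ovary the pathway is best known for exchange between germ cells and the granulosa cells around them, and in blood for the choice of the T cell fate.

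The libraries held 16230400 to 18537134 counted reads. A count of 0 in 1 library allows 3 counts, a limit of 0.161 to 0.186 CPM (counts scaled to a common library total), which covers counting error only. Listed germ cell markers were near 0 in all libraries: of 9 in the table, 6 had no read, among them Pou5f1 and Dppa3, and their summed level was 0.02 to 0.05 FPKM (the authors' values, reads scaled by gene length and by library total). Granulosa and stromal markers summed to 1.09 and 1.16 FPKM with DMSO and 0.73 and 1.12 with daidzein, with Foxl2, Fshr and Cyp19a1 at 0. Most of that sum was Amh, a granulosa hormone, with 19 to 34 reads and 0.66 to 1.10 FPKM. Of 10 listed mast cell markers, 4 were at 1 FPKM or more on average, with Cpa3, Gata2 and Kit highest, while Fcer1a, Tpsb2 and Mcpt4 had no read. The mast cell markers summed to 779.8 and 799.8 FPKM with DMSO and 794.2 and 825.0 with daidzein. Nearly all of it was Cpa3, Gata2 and Kit, at means of 481.3, 244.0 and 72.5 FPKM. Ms4a2 averaged 1.39 FPKM, and Hdc, Cma1 and Mcpt8 had at most 4, 3 and 11 reads in any library. Red cell and platelet markers summed to 76.7 to 86.8 FPKM over the 4 libraries, led by Itga2b at 37.95 to 42.06, Pf4 at 21.63 to 27.69 and Epor at 14.36 to 16.32. Macrophage and granulocyte markers summed to 38.9 to 43.7 FPKM, nearly all of it Adgre1 at 36.04 to 40.52, with Itgam, Elane, Ly6g and S100a8 at 0. The part of these other transcripts in the results was not tested.

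Rbpj binds DNA at sites with the core TGGGAA. The stretches before the starts are shown for a member gene of high level and for a target gene with few reads. RefSeq start sites on GRCm38.p6 were matched for 8 of the 10 genes, all but Hes1 and Hey1, in windows of 300 bases that run from 250 before the start to 50 after it. Lfng, the member with the highest level per kilobase, and Nrarp, a target gene with few reads, are printed for the 250 bases before the start, 5′ to 3′, at chr5:140607091-140607340, plus strand, and at chr2:25180508-25180757, plus strand. Capitals mark TGGGAA or GTGGGAA on either strand, and the E-box CACGTG, the letters that Hey proteins bind.
Lfng promoter: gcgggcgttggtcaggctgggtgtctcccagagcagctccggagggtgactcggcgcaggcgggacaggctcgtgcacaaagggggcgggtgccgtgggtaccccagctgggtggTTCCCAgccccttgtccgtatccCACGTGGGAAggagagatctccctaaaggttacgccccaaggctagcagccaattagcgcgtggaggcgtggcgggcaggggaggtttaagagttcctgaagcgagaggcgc
Nrarp promoter: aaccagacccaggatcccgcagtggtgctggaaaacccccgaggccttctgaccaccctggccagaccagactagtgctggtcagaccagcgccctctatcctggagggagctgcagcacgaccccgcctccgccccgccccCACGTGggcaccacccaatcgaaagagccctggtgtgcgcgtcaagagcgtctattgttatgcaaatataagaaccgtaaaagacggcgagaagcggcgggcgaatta

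The Lfng window held 2 matches to TGGGAA, which begin 135 and 108 bases before the start. The nearer match extends to the fuller form GTGGGAA and overlaps an E-box that begins 112 bases before the start. No Rbpj core was found in the Nrarp window, where the E-box begins 108 bases before the start. Among the 8 genes matched, the core was present for 2, Lfng and Rbpj, and the fuller form for 1, Lfng. The 8 genes had 9 windows, with more than 1 for Rbpj only, and each Rbpj window held the core. By the deposited coordinates the Rbpj windows and the Notch1 window lie inside these genes, away from their ends. The shares that follow are per window and not per gene. Of 32851 promoter windows of the same length, 25.6% held the core, 6.38% the fuller form and 7.15% the E-box. The N-box of Hes proteins, CACNAG, was present for 4 of the 8 genes and in 42.5% of all windows. The AP-1 letters TGANTCA were in none of the 8 genes' windows and in 7.81% of all. All motifs were searched on both strands, and a match describes letters, not binding.

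The ligand genes Jag1 and Jag2 are shown next because Jag1 had no read and Jag2 had at least 489 in every library. Their 250 bases before the RefSeq start lie at chr2:137116521-137116770, minus strand, and at chr12:112929496-112929745, minus strand. In the deposited coordinates Jag2 reaches further, to 112929776, so the whole printed Jag2 stretch lies inside that gene. Jag1 reaches 137116644, so part of its printed stretch lies inside the gene too. Here capitals mark CG dinucleotides, the sites of DNA methylation in mammals.
Jag1 promoter: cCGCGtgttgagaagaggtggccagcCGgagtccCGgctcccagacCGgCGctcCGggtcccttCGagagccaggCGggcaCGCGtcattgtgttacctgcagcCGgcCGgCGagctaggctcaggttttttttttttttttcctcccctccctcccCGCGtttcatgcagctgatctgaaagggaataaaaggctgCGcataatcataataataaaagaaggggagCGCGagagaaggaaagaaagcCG
Jag2 promoter: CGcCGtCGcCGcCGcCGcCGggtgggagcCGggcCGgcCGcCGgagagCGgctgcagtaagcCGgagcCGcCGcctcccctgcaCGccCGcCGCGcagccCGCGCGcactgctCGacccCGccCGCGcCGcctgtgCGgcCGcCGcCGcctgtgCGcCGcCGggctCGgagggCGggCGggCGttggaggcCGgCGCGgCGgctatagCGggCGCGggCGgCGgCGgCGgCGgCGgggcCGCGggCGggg

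The printed Jag1 stretch held 20 CG dinucleotides and the Jag2 stretch 54. Over the full windows of 300 bases Jag2 had 63, more than 99.97% of all promoter windows, and Jag1 had 22, more than 76.9% of them. The median of all windows was 7. No motif named above was found in either full window. DNA methylation was not measured.

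Receptor transcripts came mainly from Notch2. Notch2 (ENSMUSG00000027878; GRCm38 chromosome 3, 98013527 to 98150361, plus strand) stood at 9.50 and 9.75 FPKM with DMSO and at 8.53 and 9.84 with daidzein. Notch1 (ENSMUSG00000026923; chromosome 2, 26457903 to 26516663, minus strand) stood at 1.22 and 1.28 FPKM with DMSO and 1.12 and 1.12 with daidzein. Per kilobase of the deposited gene size, the Notch2 level was 7.59 to 8.80 times that of Notch1 in the 4 libraries. Of the receptors outside the set, Notch3 had 0.53 to 0.77 FPKM and Notch4 2 to 8 reads per library. Notch2 exceeded Notch3 by 12.5 to 18.7 times. Coordinates are as the deposited table lists them, and all 10 genes stand at the same place on GRCm38 in GENCODE M21, as protein-coding genes.

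The receptor genes differed little between the groups. For Notch1 the reads were 282 and 313 with DMSO and 275 and 295 with daidzein. Scaled by library size DMSO libraries stood at 17.8 ± 0.549 CPM and daidzein libraries at 16.0 ± 0.179 CPM (SD, n = 2 per group), and both daidzein libraries lay below both DMSO libraries. The log2 difference, daidzein minus DMSO, was -0.16, with a 95% interval of -0.40 to 0.08. In bulk samples fewer cells with a transcript and less of it per cell cannot be told apart. Of the 14232 exonic bases of Notch1 in GENCODE M21, 1068 also lie in exons of 0610009E02Rik on the opposite strand, a gene with 1 to 7 reads. For Notch2 the reads were 1662 and 1799 with DMSO and 1581 and 1967 with daidzein, and the groups overlapped. Its log2 difference was -0.07 (95% interval -0.21 to 0.08), and 0.02 without daidzein replicate 1.

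**Figure D1:**
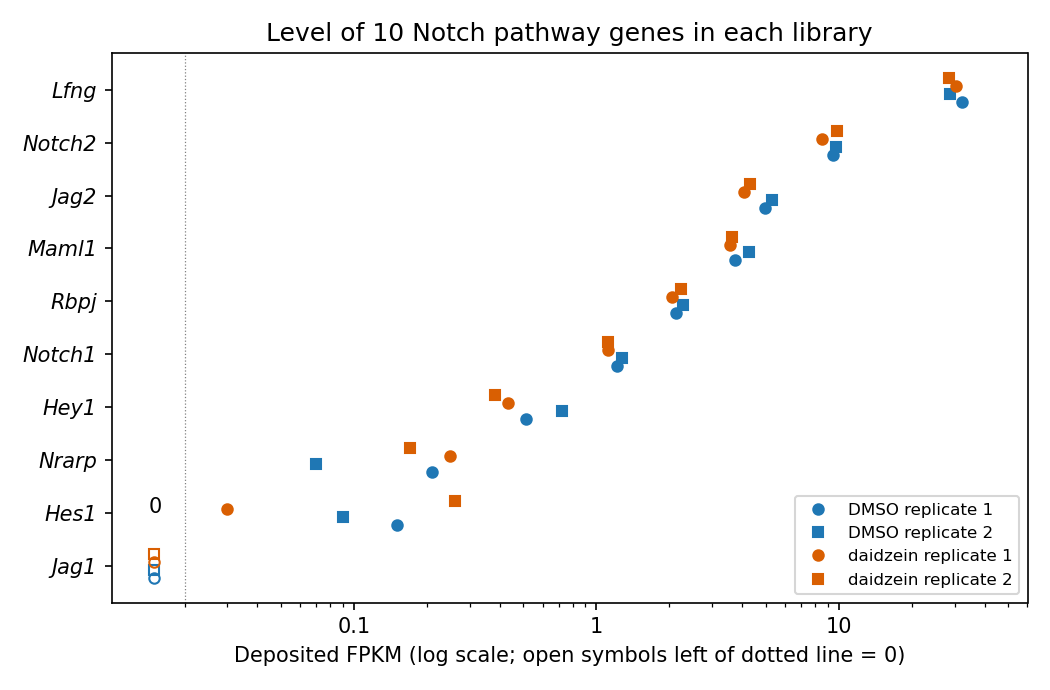
Deposited FPKM on a log axis for each of the 10 genes in each of the 4 libraries, blue for DMSO and orange for daidzein, circles for replicate 1 and squares for replicate 2. Lfng sits at 28.53 to 32.10, Notch2 at 8.53 to 9.84, Hes1 and Nrarp at 0.26 or below, and Jag1, drawn as open symbols left of the dotted line, is at 0 in every library.

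On the ligand side, Jag2 was present and Jag1 was not detected. Jag1 (ENSMUSG00000027276; GRCm38 chromosome 2, 137081456 to 137116644, minus strand) gave 0 reads in each library. Over the 4 libraries pooled the limit for Jag1 is 0.0435 CPM. Jag2 (ENSMUSG00000002799; chromosome 12, 112907819 to 112929776, minus strand) gave 558 and 632 reads with DMSO and 489 and 557 with daidzein. Against a floor of 3 counts per library for Jag1, the Jag2 level per kilobase was at least 136-fold higher in every library. The Delta-like ligands were near 0 too. Dll1 and Dll4 had no read, Dll3 had 1 to 14 reads per library, and the non-canonical ligand genes Dlk1 and Dlk2 had at most 4. Jag2 was therefore the only one of 7 listed ligand genes with more than 14 reads in any library.

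Jag2 was lower in the daidzein libraries, at 29.3 ± 0.914 CPM against 35.7 ± 1.61 CPM in the DMSO libraries (SD, n = 2 each). Both daidzein libraries, at 28.6 and 29.9 CPM, lay below the DMSO libraries at 34.5 and 36.8. The log2 difference was -0.29 with a standard error of 0.09. Taken within replicate numbers it was -0.27 for number 1 and -0.30 for number 2, and with 1 library left out it ran from -0.33 to -0.24.

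**Figure D2:**
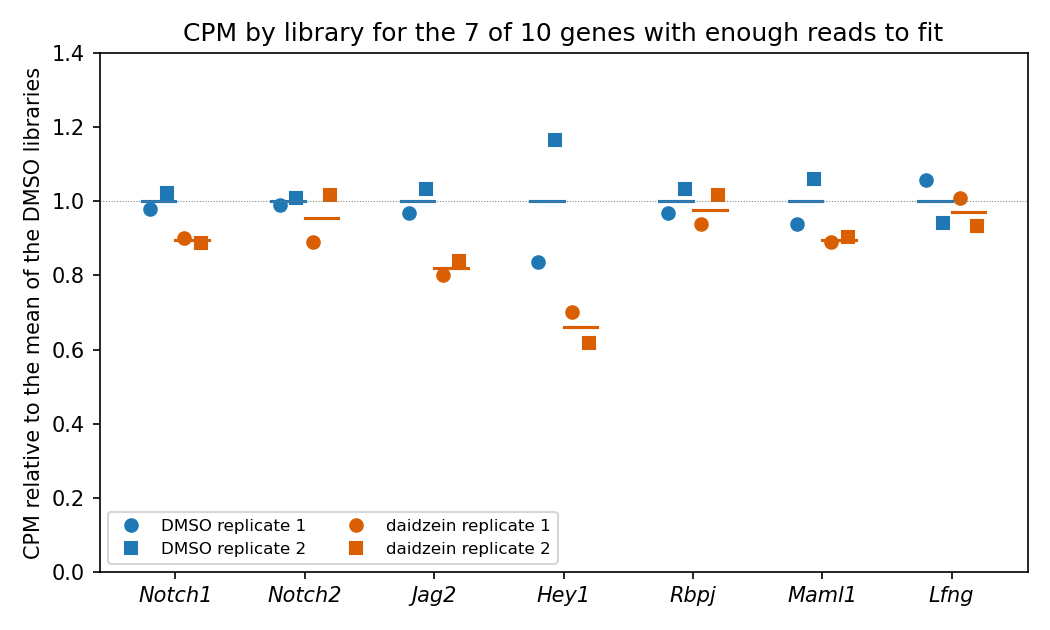
CPM of each library divided by the mean of the DMSO libraries, for the 7 of 10 genes with enough reads to fit, with short lines at group means; blue is DMSO and orange daidzein, circles replicate 1 and squares replicate 2. For Notch1, Jag2, Hey1 and Maml1 both orange points lie below both blue points, and for Notch2, Rbpj and Lfng the groups overlap.

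Lfng, a Fringe enzyme that adds a sugar to Notch receptors and shifts their response from Jagged towards Delta-like ligands, was the most abundant of the 10 genes per kilobase. Lfng (ENSMUSG00000029570; GRCm38 chromosome 5, 140607320 to 140615545, plus strand) stood at 32.10 and 28.75 FPKM with DMSO and 30.51 and 28.53 with daidzein, above 89.2% of the 19575 genes with a read. The related Fringe gene Mfng was higher, at 57.51 to 65.58 FPKM, which was 1.92 to 2.04 times Lfng. Rfng, the other Fringe gene, was lower, at 13.46 to 14.63 FPKM. All 3 Fringe genes were thus at higher levels per kilobase than Notch2.

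Lfng had 1305 and 1233 reads with DMSO and 1314 and 1325 with daidzein. Scaled to CPM the groups overlapped, at 80.8 and 71.8 with DMSO and 76.9 and 71.2 with daidzein. The log2 difference was -0.04 (95% interval -0.20 to 0.11). Leaving out DMSO replicate 1 gave 0.04 and leaving out daidzein replicate 2 gave 0.02, so the direction rested on those libraries.

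Rbpj and Maml1, the nuclear partners of the cut receptor, had at least 336 reads in every library. Maml1 (ENSMUSG00000050567; GRCm38 chromosome 11, 50255634 to 50292311, minus strand) gave 336 and 403 reads with DMSO and 337 and 372 with daidzein. Scaled to CPM, both daidzein libraries, at 19.7 and 20.0, were below the DMSO libraries at 20.8 and 23.5. The log2 difference of Maml1, -0.16 (95% interval -0.39 to 0.07), became -0.06 when DMSO replicate 2 was left out and -0.24 when DMSO replicate 1 was. Of the 5528 exonic bases of Maml1, 135 also lie in exons of Gm26542 on the opposite strand, a gene with 14 to 25 reads. No source used here states whether the counting used strand.

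Rbpj (ENSMUSG00000039191; GRCm38 chromosome 5, 53466152 to 53657362, plus strand) had 438 and 496 reads with DMSO and 449 and 530 with daidzein, and the groups overlapped. Its count is uncertain because of a near-identical copy. Rbpj-ps3 (ENSMUSG00000079575; chromosome 6, 46529354 to 46530794, minus strand), a processed pseudogene, is the reverse-transcribed remnant of an Rbpj message and had 405 and 563 reads with DMSO and 480 and 571 with daidzein. The copy took 48.0% to 53.2% of the reads of the pair in the 4 libraries. Over its whole length of 1441 bases it matched the coding part of Rbpj with 4 differences, an identity of 99.7%, and covered 1441 of 1521 coding bases of the longest Rbpj transcript.

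The 4 differences, written with the Rbpj base, the position counted from 1 at the 5′ end of the copy and the base of the copy, are T310C, C949A, G952A and A1088C. A pair of them is printed with 14 bases on each side, since only a read that crosses such a position can tell the genes apart where both hold the sequence. The capital is the base that differs.
Rbpj around T310C: gggaagaactactgTacagccaaaacatt
Rbpj-ps3 around T310C: gggaagaactactgCacagccaaaacatt
Rbpj around A1088C: ttactccaaatttaAgagtgtggtttggg
Rbpj-ps3 around A1088C: ttactccaaatttaCgagtgtggtttggg

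The longest stretch with no difference spans 638 bases. How the counting treated reads that match both genes was not tested. With the copy's reads added, the pair stood at 56.9 ± 6.72 CPM in DMSO libraries and 56.7 ± 3.36 CPM in daidzein libraries (SD, n = 2 per group). The log2 ratio of these means was -0.0046. Rbpj alone gave -0.03 by the same measure. The fitted log2 difference of Rbpj was -0.03 (95% interval -0.24 to 0.17), and leaving out DMSO replicate 2 or daidzein replicate 1 gave 0.02 each. A search of the coding transcripts of all 10 genes against every GENCODE M21 transcript found no copy of another member at a separate place in the genome, at 95% identity over 300 bases or more.

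**Figure D3:**
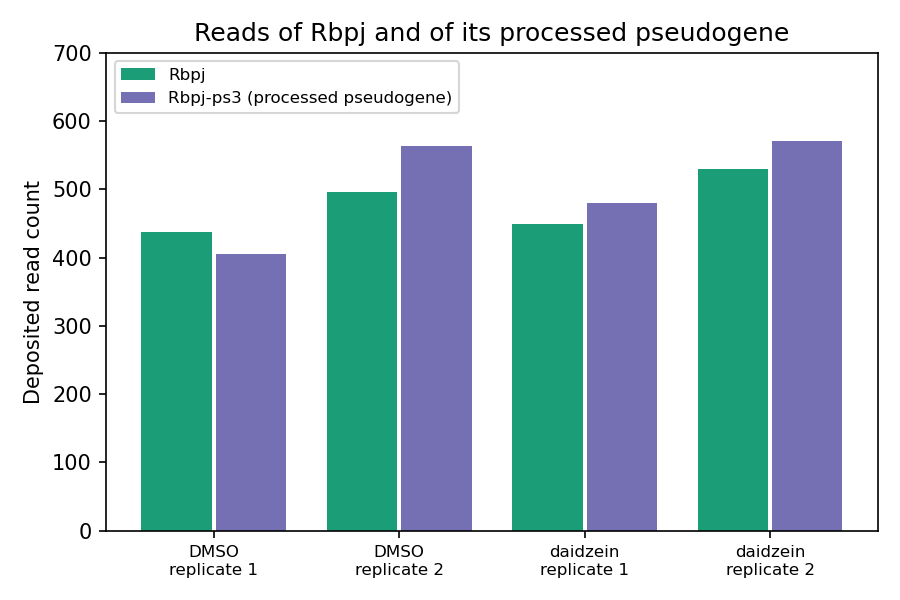
Deposited read counts of Rbpj (green) and of its processed pseudogene Rbpj-ps3 (purple) as bars for each of the 4 libraries. The pseudogene has 405 to 571 reads and Rbpj 438 to 530, and the pseudogene has fewer reads than Rbpj in DMSO replicate 1 and more in the other libraries.

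The target genes of the set had few reads, at most 40 in any library. Hes1 (ENSMUSG00000022528; GRCm38 chromosome 16, 30064384 to 30067796, plus strand), a repressor and the most widely used readout of Notch activity, had 5 and 3 reads with DMSO and 1 and 10 with daidzein. Nrarp (ENSMUSG00000078202; chromosome 2, 25180758 to 25183339, plus strand), which encodes a feedback inhibitor of the receptor's intracellular part, had 9 and 3 reads with DMSO and 11 and 8 with daidzein. Of the 2582 exonic bases of Nrarp, 2051 also lie in exons of Gm38287 on the opposite strand, which had 0 reads in all 4 libraries. How reads in such a shared stretch were counted is not given in the sources used here, and the part of the overlap in the low Nrarp count was not tested. Hes1 and Nrarp were below the filter on low counts, and in both the groups overlapped. The ratio of daidzein to DMSO per depth, pooled over libraries, was 1.28 for Hes1, with a 95% exact binomial interval of 0.470 to 3.68. For Nrarp it was 1.48, with an interval of 0.681 to 3.34. These intervals cover counting error only, and a difference between the groups was not detectable at this depth.

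Hey1, a repressor related to Hes1 (ENSMUSG00000040289; GRCm38 chromosome 3, 8663359 to 8667256, minus strand), gave 27 and 40 reads with DMSO and 24 and 23 with daidzein. The DMSO libraries stood at 2.00 ± 0.466 CPM and the daidzein libraries at 1.32 ± 0.120 CPM (SD, n = 2 per group), and both daidzein libraries lay below both DMSO libraries. The log2 difference was -0.60, with a 95% interval of -1.33 to 0.12. It was -0.25 within replicate number 1 and -0.92 within number 2. Without DMSO replicate 2, the library with the most Hey1 reads, it was -0.34.

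In order of deposited FPKM the 10 genes were Lfng, Notch2, Jag2, Maml1, Rbpj, Notch1, Hey1, Nrarp, Hes1 and Jag1. The ranges over the 4 libraries overlapped between neighbours for Jag2 with Maml1 and for Nrarp with Hes1. Within libraries Jag2 was above Maml1 in 4 of 4, and Nrarp was above Hes1 in 2 of 4, so the order of the latter pair did not hold beyond its spread. With no account of length, in CPM, Notch2 ranked 1, at 92.5 to 105.6, and Lfng ranked 2, at 71.2 to 80.8. The order of Rbpj and Maml1 also depends on the length used, and turns in CPM. The deposited size of Rbpj, 12750 bases, is 2.32 times its longest coding transcript of 5485 bases, while for Maml1 both are 5528. Per kilobase of that transcript Rbpj stood at 4.76 to 5.28 and Maml1 at 3.55 to 4.26 on the FPKM scale. On the same scale Nrarp ranked below Hes1, with overlapping ranges. The place of Rbpj in all these orders leaves out the reads given to Rbpj-ps3. With them the pair averaged 56.9 CPM with DMSO and 56.7 CPM with daidzein, above Jag2 at 28.6 to 36.8 CPM. How many of those reads came from Rbpj was not tested.

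Of the 7 genes that passed the filter on low counts, 0 fell or rose at an adjusted p of 0.05 by edgeR (quasi-likelihood test, Benjamini-Hochberg over 11700 genes). Among all those genes 0.0171% fell, which is Fos and Fosb, and 0% rose. At an unadjusted p under 0.05 there was 1 of the 7, Jag2, against 2.91% of all genes tested. All 7 had a log2 difference below 0, against 51.3% of all genes tested, and their median was -0.16 against -0.0027. Both daidzein libraries lay below both DMSO libraries for 4 of the 7, Notch1, Jag2, Hey1 and Maml1, against 15% of all genes tested. They lay above for 0 of the 7, against 14.7% of all. The genes were chosen with this comparison known, so nothing is read from these counts, and the 3 members outside the filter are not in them.

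Other genes of the pathway, 72 in all and listed by role, did not share a direction. Of 53 with enough reads, 30 had a log2 difference below 0 and 23 above, with a median of -0.03. By edgeR 0 of 53 fell or rose over all genes, 0 had an unadjusted p under 0.05, and DESeq2 and limma on FPKM also called 0. Both daidzein libraries were below both DMSO libraries for 4 genes and above for 4. Of the 72, 7 had no read in any library.

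Transcripts of the cutting machinery ranged from 0.12 to 51.49 FPKM. Furin, which cuts the receptor on its way to the surface, stood at 48.39 to 51.49 FPKM, and the surface protease gene Adam10 at 17.29 to 19.65. Aph1a, a subunit of gamma-secretase, stood at 14.15 to 17.13 FPKM. Its relatives Aph1b, at 0.75 to 1.14 FPKM, and Aph1c, at 0.12 to 0.25, were lowest of the group, below the subunit gene Psenen at 2.52 to 3.33, and these 3 were named after their values were seen. All 10 listed genes of this group were tested, 5 with a difference below 0 and 5 above, from -0.09 to 0.09 on the log2 scale. Besides the Fringe genes, the glycosyltransferase gene Poglut1 stood at 13.49 to 14.21 FPKM. The 4 glycosylation genes outside the set had differences of -0.08 to 0.05.

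Among ubiquitin ligases and endocytic regulators, Dtx3 stood at 8.72 to 10.88 FPKM, Itch at 6.31 to 7.32 and Dtx4 at 5.42 to 6.55. Of 10 tested, 6 were below 0 and 4 above, from -0.10 to 0.11. Co-activators and turnover factors were led by the acetyltransferase gene Kat2a at 46.87 to 51.33 FPKM, Snw1 at 13.61 to 15.28 and Cdk8 at 13.99 to 14.38. Of 10 tested, 6 were below 0 and 4 above. In this group Maml2, the relative of Maml1, had 21 to 39 reads per library and the lowest difference, -0.43 (95% interval -1.17 to 0.31), and was named after its values were seen.

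Among co-repressors, which keep Rbpj targets silent without a Notch signal, Ctbp1 stood at 99.32 to 107.7 FPKM, and the histone deacetylase genes Hdac3 and Hdac2 at 32.38 to 33.59 and 30.26 to 32.27. Of 12 tested, 6 were below 0 and 6 above, with a median of -7.9e-05. Rbpjl, a relative of Rbpj, and Ctbp2 had 0 reads in every library. The row of Ctbp2 overlaps in the table that of Fgfr2 on the same strand, which was also at 0, and whether the overlap removed reads of Ctbp2 was not tested.

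Listed targets outside the set ranged from no read to the highest level of the whole pathway list. Hes3, Hes5 and Heyl, close relatives of Hes1 and Hey1, had no read in any library. Myc, Ccnd1 and Cdkn1a, which many other pathways also control, were abundant, with Myc at 177.7 to 198.6 FPKM, Ccnd1 at 28.87 to 31.89 and Cdkn1a at 20.99 to 24.09. Hes6, which opposes Hes1 and was named after its values were seen, stood at 13.92 to 17.05 FPKM. Whether Notch controls Hes6 in these cells was not tested. Of 6 targets tested, 5 were below 0 and 1 above, from -0.21 to 0.09, and 0 passed the edgeR test.

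**Figure D4:**
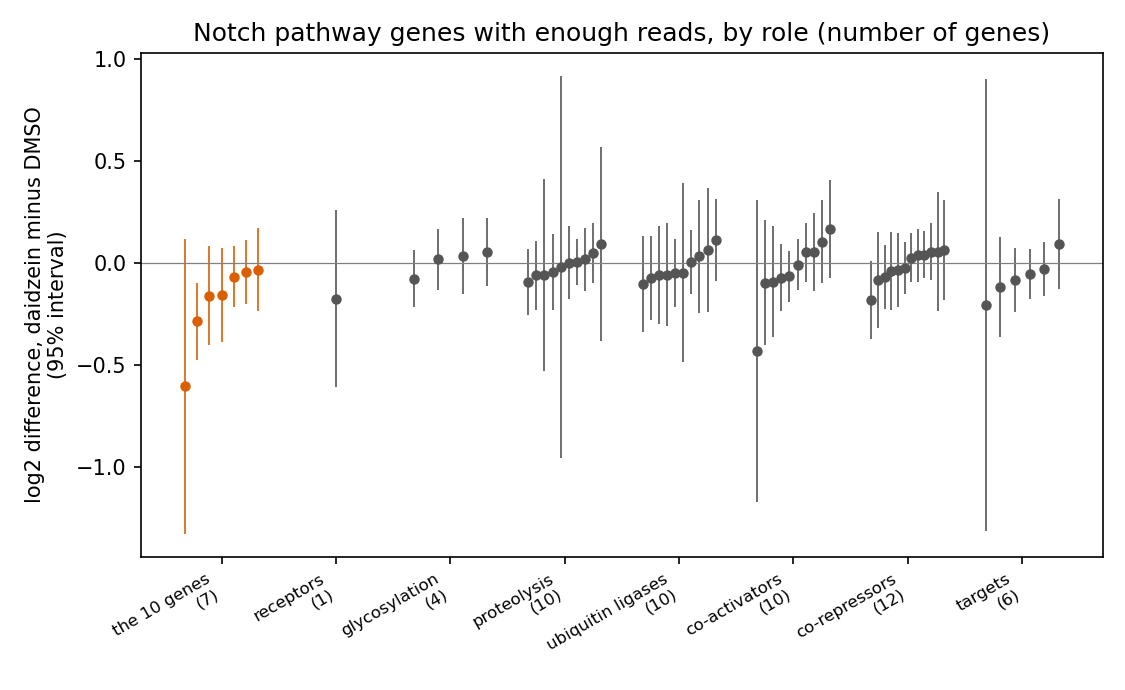
Log2 difference, daidzein minus DMSO, with its 95% interval for each Notch pathway gene with enough reads, grouped by role, orange for the 7 genes of the set and grey for the 53 others. The orange points run from -0.60 to -0.03, and grey points lie on both sides of 0 in every group of more than 1 gene.

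The deposited annotation gave a wider list. Terms that name the Notch signaling pathway were attached to 134 genes, all 10 of the set among them. Of the 124 others, 62 had enough reads, 34 with a difference below 0 and 28 above, with a median of -0.01. By edgeR 0 of the 62 passed and 0 had an unadjusted p under 0.05. Both daidzein libraries lay below both DMSO libraries for 7 genes and above for 7.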

How the data were processed

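RNA sequencing counts and FPKM per gene were used for 4 libraries, grouped by title into 2 Control samples, here called DMSO, and 2 daidzein samples. The build mm9 and the tools HTSeq 0.6.1, HISAT2 2.0.1 and DESeq2 stand, without a role, in the submitters' processing notes. The deposited coordinates are those of GRCm38: 55141 of 55401 genes matched GENCODE M21 by identifier, with the same start for 99.6%. Read counts per gene in the deposited table are whole numbers and not normalized. FPKM values in the same table are the authors', per kilobase of the listed exonic size.

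Counts were fitted in edgeR 4.0.16 (R 4.3.3) by the quasi-likelihood test, with TMM normalization, the default filterByExpr filter and Benjamini-Hochberg adjustment, and 11700 genes were tested. CPM uses the TMM library sizes. Steps were tested on simulated data. Pairs of libraries had a chi-square per degree of freedom of 2.23 to 4.81 over genes with at least 40 pooled reads, so none was taken as a duplicate. Alternatives used DESeq2 1.42.0 and limma 3.58.1. Copies were searched with blastn 2.17.0. Promoter sequences are from RefSeq on GRCm38.p6. Members and lists were chosen with earlier results of these data known. Named genes are the 10 members, up to 3 genes of highest FPKM in each list, and those with no read. Genes of like pattern were not sought with 4 libraries.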

Additional observations from a re-analysis of the deposited data

How the results depend on the processing

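The count of other Notch pathway genes that passed, 0, was 0 under every alternative that kept all 4 libraries, the replicate block included. At an unadjusted p under 0.05 by edgeR it was 1 of 65 with no filter on low counts and 1 of 53 with the replicate block. Over all genes 530 and 748 were under 0.05 in those fits. It was 0 of 49 with a filter of 5 CPM, and 0 of 53 by DESeq2 and by limma. The count over all genes, 2 by edgeR, was 1 by DESeq2 (Fosb), 11 with no filter on low counts, 1 with a filter of 5 CPM, 0 by limma trend on log2(FPKM + 1), with 461 genes at an unadjusted p under 0.05 there, and 4 to 17 when each library in turn was left out, the lone library of a group being assumed to vary like those of the other. The replicate block gave 27. No label gives same-numbered libraries a shared batch, and the correlation of their deviations from group means was 0.09 over genes. With 2 libraries per group both pairs give the same value by construction. Over the counts of all genes, however, the same-numbered libraries were the 2 closest of the 6 pairs, with a chi-square per degree of freedom of 2.23 and 3.51 against 4.05 to 4.81 for the others. This is a hint from the data and not from the design, so the numbers were kept as names, and the block's count stands beside the other. None of the 7 genes tested passed in any of its alternatives, 9 for each but Hey1, which had 8. Of 62 recomputed log2 differences of the 7 genes tested, 57 were below 0 and 5 above, for Notch2, Rbpj and Lfng, each with a library left out. These refits share the same libraries and the genes were chosen with the comparison known, so nothing is read from the counts. From the main value, 5 of the 62 moved beyond the gene's spread between replicates, for Notch1, Hey1 and Maml1. Hey1, for example, went from -0.60 to -0.20 by limma trend on log2(FPKM + 1). The transcript lengths and the sum with Rbpj-ps3 were chosen after seeing the data. The cause of these changes was not tested. Depth limits Hes1 and Nrarp to ratios with wide counting intervals, 0.470 to 3.68 and 0.681 to 3.34, and Jag1, with no read, could not be compared between the groups.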
